A study of Mus musculus with 8 samples.

Results

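The glycogen metabolism genes of mouse CD8+ T cells were followed over 4 culture conditions on 8 Clariom S Mouse arrays. They comprised the 3 glycogen phosphorylase genes Pygl, Pygb and Pygm, and Gyg, Gys1, Gbe1 and Ugp2, which act in glycogen synthesis. These 7 genes were taken by symbol, out of 21160 genes that had a transcript cluster of their own on the array. Pygl was chosen on its measured value in the comparison of the PPARα agonist with DMSO, so its differences from DMSO are given as a description and without a test. The other 6 were chosen by function, with earlier results of the same data known.

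The cells were naive CD8+ T cells of female mice, stimulated in vitro. They spent 48 h with DMSO, the usual solvent control, or with 1 agonist, directed at PPARα, PPARβ or PPARγ, and all are labelled day 2. Each of the 4 groups held 2 arrays, 1 in each of 2 culture sets. A culture set is here the 4 arrays that share a prefix of the sample title, and the labels do not say what the prefix stands for. The term is only a name and does not state that its arrays were cultured together. Compound names, doses, the mouse strain and the number of animals are not given in the sources used here. No label says that arrays of 1 group stem from separate cultures or animals, so p-values measure only their spread, which may be technical.

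Glycogen is a branched store of glucose. Glycogenin (Gyg) primes a new particle, UDP-glucose pyrophosphorylase (Ugp2) makes the activated sugar, glycogen synthase (Gys1) extends the chains and the branching enzyme (Gbe1) adds branch points. Glycogen phosphorylase cuts glucose 1-phosphate from the chain ends and exists as a liver (Pygl), a brain (Pygb) and a muscle (Pygm) form. In mouse memory CD8+ T cells, glycogen built from gluconeogenic precursors has been described as a carbon source for the pentose phosphate pathway, while freshly activated CD8+ T cells rely on taken-up glucose. PPARα, PPARβ and PPARγ are nuclear receptors for fatty acids that bind DNA with a retinoid X receptor partner at paired copies of the hexamer AGGTCA.

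The 250 bases before the gene start are shown for Pygl, Gyg and Gys1. Pygl is the phosphorylase gene chosen on its value against DMSO, and Gyg is the member whose pattern was most like it. Gys1 is the member that was highest with the PPARβ agonist in both culture sets. The bases come from RefSeq on build GRCm38.p6, read 5′ to 3′ on the gene's strand, and capitals mark AGGTCA or its reverse complement TGACCT. The Pygl stretch is chr12:70227684-70227933 on the minus strand, the Gyg stretch chr3:20155117-20155366 on the minus strand and the Gys1 stretch chr7:45434589-45434838 on the plus strand. The gene start here is that of RefSeq. The array annotation, whose coordinates are used for the genes below, starts Pygl and Gyg further upstream, so on the array the Pygl stretch lies within the gene and most of the Gyg stretch does.
Pygl: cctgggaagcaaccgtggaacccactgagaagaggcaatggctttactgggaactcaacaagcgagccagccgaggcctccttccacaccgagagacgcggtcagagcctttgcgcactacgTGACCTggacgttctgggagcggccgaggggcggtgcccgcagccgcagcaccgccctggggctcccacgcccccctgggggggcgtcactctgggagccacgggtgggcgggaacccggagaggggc
Gyg: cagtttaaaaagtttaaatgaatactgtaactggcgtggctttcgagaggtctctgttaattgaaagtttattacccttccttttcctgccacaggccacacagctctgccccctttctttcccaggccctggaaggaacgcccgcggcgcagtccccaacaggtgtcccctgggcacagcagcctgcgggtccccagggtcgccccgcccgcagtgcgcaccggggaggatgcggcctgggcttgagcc
Gys1: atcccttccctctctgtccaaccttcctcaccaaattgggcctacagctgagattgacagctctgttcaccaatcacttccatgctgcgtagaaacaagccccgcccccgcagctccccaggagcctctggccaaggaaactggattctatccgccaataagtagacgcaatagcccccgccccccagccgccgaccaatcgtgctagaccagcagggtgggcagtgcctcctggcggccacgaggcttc
The hexamer was searched on both strands and occurred once before Pygl, beginning 128 bases from the gene start, and nowhere in the same window of the other 6 genes. At least 1 copy was present in 14 percent of 32851 promoter windows of this length. The paired form AGGTCANAGGTCA, which contains the hexamer, was found in 0 windows of the 7 genes and in 0.0335 percent of all windows. These matches describe letters in a window and say nothing about binding.

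The samples carried the RNA of CD8+ T cells. All 7 CD8 T cell markers with a cluster of their own (Cd8a, Cd8b1, Cd3d, Cd3e, Cd3g, Cd247 and Zap70) lay above 4.89, the log2 level from which genes were tested, and their summed level was between 18.77 and 18.95 on every array. All values are log2 RMA values, array intensities that were background-corrected, normalised between arrays and summarised per transcript cluster. Testing covered 12696 genes, all 7 glycogen genes among them. The culture set was a strong source of variation, and the differences between sets of any 2 groups correlated at 0.496 to 0.550 across genes.

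Pygl, which lies at chr12:70190811-70231488 on the minus strand of build mm10, was lowest with DMSO in both culture sets. In set 1 it stood at 6.74 with DMSO, 7.82 with the PPARα agonist, 7.70 with the PPARβ agonist and 8.13 with the PPARγ agonist. In set 2 it stood at 8.43, 9.40, 9.34 and 8.84 in the same order. Every agonist array exceeded the DMSO array of its own set, but the groups overlapped when the sets were mixed, because the DMSO array of set 2 was higher than any agonist array of set 1.

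Against DMSO the mean log2 difference of Pygl was 1.02 with the PPARα agonist, a 2.03-fold higher level, with 1.08 in set 1 and 0.96 in set 2. It was 0.93 with the PPARβ agonist, 1.91-fold, with 0.96 and 0.90 in the sets. It was 0.90 with the PPARγ agonist, 1.86-fold, with 1.39 and 0.41 in the sets. These 3 comparisons share the same DMSO arrays, so they are not independent of each other. The DMSO mean was 7.59 ± 1.2 (SD, n = 2). The means under the PPARα, PPARβ and PPARγ agonists were 8.61 ± 1.11, 8.52 ± 1.16 and 8.48 ± 0.51, and each SD measures the distance between the sets. Without the DMSO array of set 1 the sets are no longer balanced and the 3 differences were 0.17, 0.09 and 0.05. Without the DMSO array of set 2 they were 1.87, 1.78 and 1.74.

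**Figure D1:**
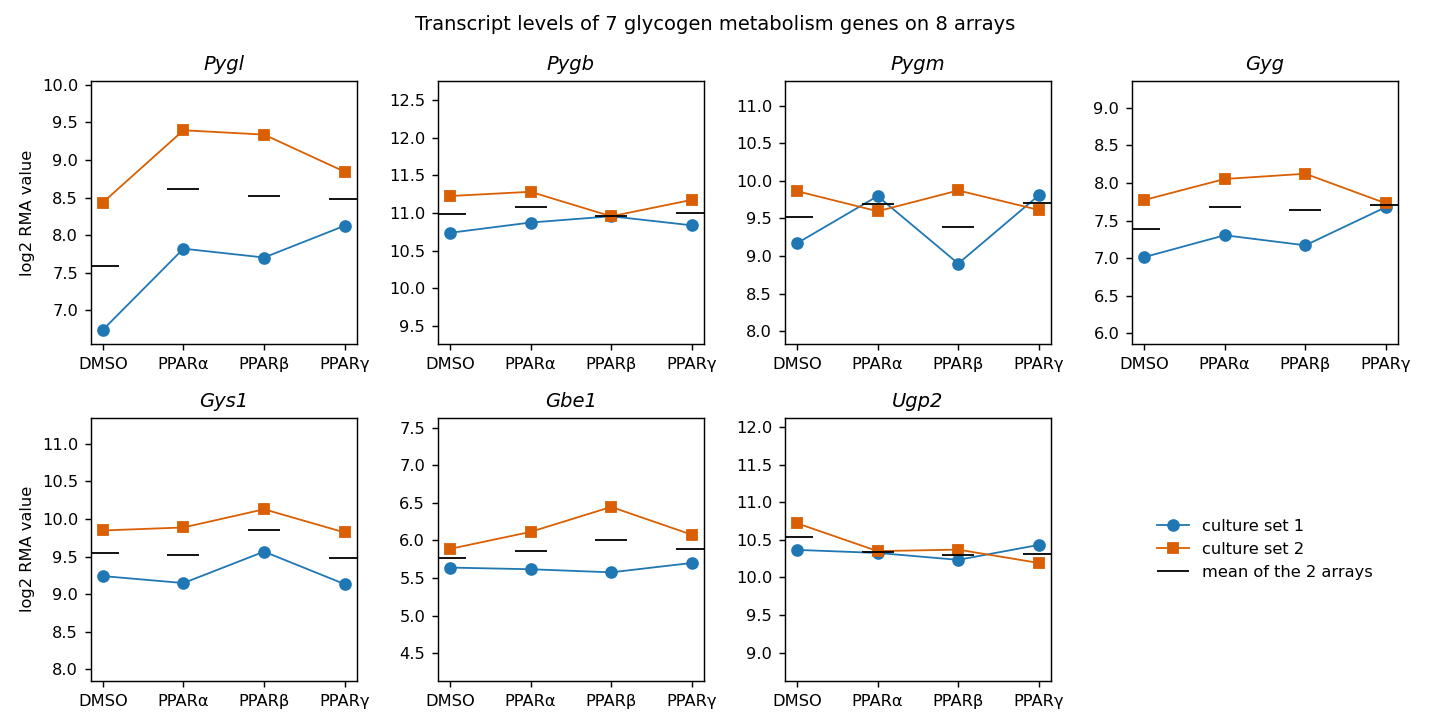
Log2 RMA values of the 7 genes on the y axis for the 4 treatments on the x axis, with circles for culture set 1, squares for culture set 2 and bars for the mean of the 2 arrays; each panel spans the same range of log2 units. Pygl was lowest with DMSO in both sets, and Gys1 was highest with the PPARβ agonist in both sets.

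Marker lists of other cell types were read beside Pygl. For neutrophils, 2 of 8 markers (S100a9 and Mpo) lay above 4.89 and Ly6g, Elane and S100a8 below it. The neutrophil sum in set 1 was 7.22 with DMSO and 7.34, 7.28 and 7.44 under the agonists of PPARα, PPARβ and PPARγ. In set 2 it was 7.35 with DMSO and 7.36, 7.30 and 7.31 in the same order. It was thus above DMSO with each agonist in set 1 and only with the PPARα agonist in set 2. For macrophages, 2 of 8 (Cd68 and Itgam) lay above 4.89 and Lyz2, Csf1r and Adgre1 below it. The macrophage sum was 8.87 to 9.11 with DMSO and 8.60 to 8.66, 8.65 to 8.71 and 8.68 to 8.83 with the agonists, lower within each set. For hepatocytes 1 of 6 (Alb) lay above 4.89, with sums of 7.02 to 7.06 with DMSO and 6.78 to 7.23 over the agonist arrays. The skeletal muscle list, with 3 of 6 (Ckm, Tnnt3 and Mb), summed to 7.67 to 7.81 with DMSO and, with the agonists, to 7.78 to 7.88, 7.97 to 8.06 and 7.63 to 8.05, higher than DMSO in 5 of 6 pairs within a set. The B cell list, with 1 of 6 (Cd79b), summed to 9.79 to 10.05 with DMSO and to 9.73 to 9.91, 9.56 to 9.71 and 9.32 to 9.81 with the agonists, lower within each set. On these bulk arrays fewer cells of a type and less RNA per cell cannot be told apart, and the part of other cells in the Pygl values was not tested.

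The brain and muscle forms of glycogen phosphorylase were not called against DMSO. Pygb (chr2:150786735-150831758) varied little, from 10.74 to 10.96 in set 1 and from 10.96 to 11.28 in set 2. Its differences from DMSO were 0.10, -0.02 and 0.02 under the agonists of PPARα, PPARβ and PPARγ. The 95% intervals from limma were -0.46 to 0.65, -0.58 to 0.53 and -0.53 to 0.58. With culture set as a block they were -0.28 to 0.47, -0.40 to 0.35 and -0.35 to 0.40. None of the 3 differences passed limma's test (adjusted p = 0.9999, 0.9999 and 1.0), nor with the block (adjusted p = 0.993, 0.998 and 0.989).

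Pygm (chr19:6384399-6398459) went opposite ways in the sets. In set 1 it stood at 9.17 with DMSO, 9.80 and 9.81 with the PPARα and PPARγ agonists and 8.90 with the PPARβ agonist. In set 2 it stood at 9.86 with DMSO, 9.60 and 9.61 with the PPARα and PPARγ agonists and 9.87 with the PPARβ agonist. The PPARα and PPARγ arrays thus lay close together in each set, above DMSO in set 1 and below it in set 2. The mean differences from DMSO were 0.18, -0.13 and 0.19 (SE 0.348 each), and none passed limma's test (adjusted p = 0.9999, 0.9999 and 1.0). With culture set as a block the SE was 0.303 each, and none passed (limma adjusted p = 0.993, 0.997 and 0.946).

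Among the synthesis genes, Gyg (chr3:20122084-20155317) was lowest with DMSO in set 1 and near its lowest in set 2. Its values were 7.01 with DMSO and 7.31, 7.17 and 7.68 under the agonists of PPARα, PPARβ and PPARγ in set 1, and 7.77, 8.05, 8.12 and 7.73 in set 2. The mean differences from DMSO were 0.29, 0.25 and 0.31 (SE 0.395 each; 0.29 and 0.28, 0.16 and 0.35, and 0.67 and -0.04 in the sets). They did not pass limma's test (adjusted p = 0.9999, 0.9999 and 1.0), nor with culture set as a block (SE 0.220 each, adjusted p = 0.986, 0.973 and 0.862).

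Gys1 (chr7:45434839-45456619) was highest with the PPARβ agonist in both sets. It stood at 9.24 with DMSO, 9.15 with the PPARα agonist, 9.57 with the PPARβ agonist and 9.13 with the PPARγ agonist in set 1, and at 9.85, 9.89, 10.13 and 9.82 in set 2. The DMSO, PPARα and PPARγ values of a set lay within 0.11 of the DMSO value. The difference of the PPARβ agonist from DMSO was 0.30, or 1.23-fold (0.32 and 0.28 in the sets). It did not pass limma's test (SE 0.366, adjusted p = 0.9999), nor with culture set as a block (SE 0.132, 95% interval -0.01 to 0.61, adjusted p = 0.820). With the PPARα and PPARγ agonists the differences were -0.03 and -0.07.

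Gbe1 (chr16:70313949-70569720) ranged from 5.58 to 5.70 in set 1 and from 5.89 to 6.45 in set 2, where its highest value was that of the PPARβ agonist. Its differences from DMSO were 0.10, 0.25 and 0.12 under the agonists of PPARα, PPARβ and PPARγ, and the 0.25 was made of -0.06 in set 1 and 0.56 in set 2. Ugp2 (chr11:21321138-21371201) was the member with a mean below DMSO for every agonist, at -0.21, -0.24 and -0.23. In set 2 its DMSO array stood at 10.72 and the agonist arrays at 10.35, 10.37 and 10.19, while in set 1 DMSO at 10.36 lay within the agonist range of 10.23 to 10.43. None of these differences passed limma's test (adjusted p = 0.9999 with the PPARα and PPARβ agonists and 1.0 with the PPARγ agonist). With culture set as a block limma's adjusted p was 0.993, 0.950 and 0.935 for Gbe1 and 0.986, 0.950 and 0.868 for Ugp2.

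**Figure D2:**
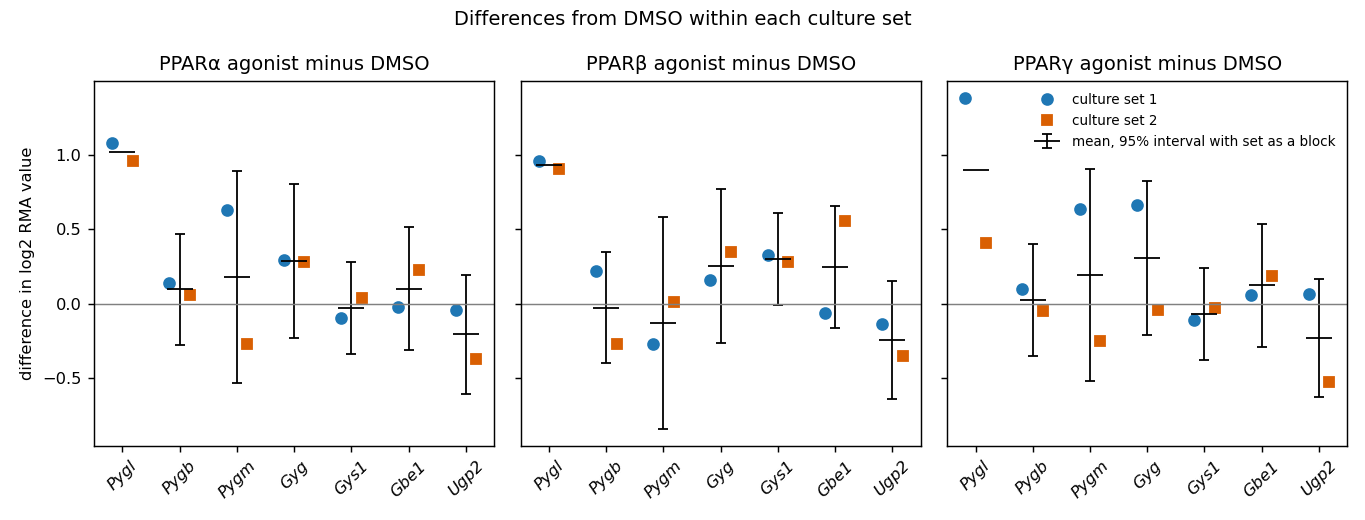
Difference in log2 RMA value from DMSO on the y axis for each gene on the x axis, 1 panel per agonist, with circles for set 1, squares for set 2, bars for their mean and lines for the 95% interval with set as a block (none for Pygl, which was chosen on these values). Pygl lay above 0 in both sets with each agonist, from 0.41 to 1.39.

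Across the 6 members other than Pygl, 0 differences from DMSO passed limma at an adjusted p under 0.05. Among all tested genes such calls made up 0 percent with the PPARα agonist, 0.00788 percent with the PPARβ agonist and 0 percent with the PPARγ agonist. At an unadjusted p under 0.05 there were 0 of the 6 with each agonist, without the block and with it. Of all genes 1.77, 2.35 and 2.17 percent reached this without the block and 4.86, 6.13 and 5.84 percent with it, in the order PPARα, PPARβ and PPARγ. The F test for any difference among the 4 treatments called 0 of the 6, with adjusted p of 1.0 each, against 0.00788 percent of all genes, and the smallest unadjusted p was 0.579 without the block and 0.0839 with it (Gys1).

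As a description of direction, genes were counted that differed from DMSO by at least 0.3 the same way in both sets. Pygl was higher by this measure with each of the 3 agonists and no other member was, and 0 members were lower. Among all genes 2.43 percent were higher and 2.36 percent lower with the PPARα agonist, 2.71 and 2.76 percent with the PPARβ agonist, and 2.68 and 2.59 percent with the PPARγ agonist. Above DMSO in both sets with all 3 agonists were 26 genes, or 0.205 percent, and below it 25, or 0.197 percent. Since Pygl was chosen by its value and the DMSO arrays are shared, its place among the 26 is a description. Over the 6 members without Pygl the median difference from DMSO was 0.10, 0.11 and 0.07 under the agonists of PPARα, PPARβ and PPARγ, and over all genes it was -0.02, -0.01 and -0.01.

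Pairs of agonists were compared next. Pygl with the PPARβ agonist differed by 0.04 from its level with the PPARγ agonist. The 2 means share no array with the comparison Pygl was chosen on. The spread behind the interval and p was estimated over all 8 arrays, those of that comparison included, so this test is not free of the choice. The limma 95% interval was -1.72 to 1.79 (adjusted p = 1.0), and -0.54 to 0.61 with culture set as a block, so a difference of up to about that size was not resolved. The order turned between sets, at -0.42 in set 1 and 0.49 in set 2. Given without a test, the PPARα level of Pygl exceeded the PPARβ level by 0.12 and 0.06 in the sets, and against the PPARγ level it lay 0.31 lower in set 1 and 0.55 higher in set 2. The sign of both mean differences turned when some single arrays were left out.

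Gys1 with the PPARβ agonist exceeded its PPARγ level by 0.37 (0.43 and 0.31 in the sets) and its PPARα level by 0.33 (0.42 and 0.24). Neither passed limma's test (adjusted p = 1.0 and 0.9999), and with culture set as a block the adjusted p was 0.661 and 0.838, at an unadjusted p of 0.0250 and 0.0394. Pygm with the PPARβ agonist lay 0.31 below its PPARα level and 0.32 below its PPARγ level on average, from -0.90 and -0.91 in set 1 and 0.28 and 0.26 in set 2 (limma adjusted p = 0.9999 and 1.0). Of the other members, none passed in any pair of agonists.

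Limma called 0.00788 percent of all genes for the PPARβ against the PPARα agonist, 0 percent for PPARγ against PPARα and 0.00788 percent for PPARβ against PPARγ. Past 0.3 in both sets was 1 member, Gys1, higher with the PPARβ than the PPARγ agonist, where 2.89 percent of all genes were higher and 2.62 percent lower. In the other comparisons 0 members were past it, where 2.92 percent of genes were higher and 2.63 percent lower for PPARβ against PPARα, and 2.83 and 2.32 percent for PPARγ against PPARα.

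The culture sets separated 4 of the 7 members. The rule that chose the genes names no difference between sets, although earlier results of these data were known. Pygl, Gyg, Gys1 and Gbe1 were higher in set 2 than in set 1 in each of the 4 treatments. Their 4 arrays of set 2 all lay above the 4 of set 1. The share of all tested genes that did either was not counted, so neither marks these 4 members out. In a fit with treatment, limma called these 4 of 7 higher (57.1 percent) and 0 lower. Of all genes 7.25 percent were called higher and 9.74 percent lower in set 2. The 4 arrays of a set are the 4 treatments and not replicates of that set. An SD over them includes differences between treatments. Limma's p-values between sets thus measure the spread between arrays, not between repeated sets.

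Pygl averaged 7.60 ± 0.60 (SD, n = 4) in set 1 and 9.0 ± 0.45 in set 2, a log2 difference of 1.41 or 2.65-fold (SE 0.173, limma adjusted p = 0.00386). By treatment the difference was 1.69 with DMSO, 1.57 with the PPARα agonist, 1.63 with the PPARβ agonist and 0.72 with the PPARγ agonist. Gys1 rose from 9.27 ± 0.20 to 9.92 ± 0.14, by 0.65 (SE 0.0931, limma adjusted p = 0.00606), with 0.56 to 0.74 over the treatments. Both calls were kept when any array was left out, with adjusted p up to 0.0223 for Pygl and 0.0340 for Gys1.

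Gyg differed by 0.63 between the sets (SE 0.156, limma adjusted p = 0.0349) and Gbe1 by 0.50 (SE 0.124, limma adjusted p = 0.0355). The Gyg call was lost without either DMSO array (limma adjusted p = 0.110), either PPARα array (0.116) or either PPARβ array (0.111). The Gbe1 call was lost without any 1 array, at a limma adjusted p of 0.0538 to 0.106. Pygb at 0.31, Pygm at 0.32 and Ugp2 at 0.07 did not pass limma's test (adjusted p = 0.107, 0.351 and 0.738). A two-sided exact permutation test of 4 against 4 arrays gave p = 0.0286 for Pygl, Gyg, Gys1 and Gbe1 each. That is the smallest p that free exchange of the arrays can give, and it restates that the sets did not overlap. The share of all tested genes that reached it was not counted, so it does not mark these members out. Each set holds 1 array per treatment, and an exact permutation test that exchanged sets only within treatments gave p = 0.125 for each of the 4, the smallest it can give, so it cannot reach 0.05.

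The CD8 marker sum was 18.77 to 18.90 in set 1 and 18.90 to 18.95 in set 2, higher in set 2 in all 4 treatments. The neutrophil sum was 7.22 to 7.44 in set 1 and 7.30 to 7.36 in set 2. The B cell sum was lower in set 2 in all 4 treatments, at 9.71 to 10.05 in set 1 and 9.32 to 9.79 in set 2. The sums were 8.60 to 9.11 and 8.65 to 8.87 for macrophages, 6.92 to 7.03 and 6.78 to 7.23 for hepatocytes and 7.67 to 8.05 and 7.63 to 8.06 for skeletal muscle. The part of other cells in the set differences was not tested. What differs between the sets besides these transcripts is not stated in the labels, so cells, culture and array processing cannot be told apart.

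**Figure D3:**
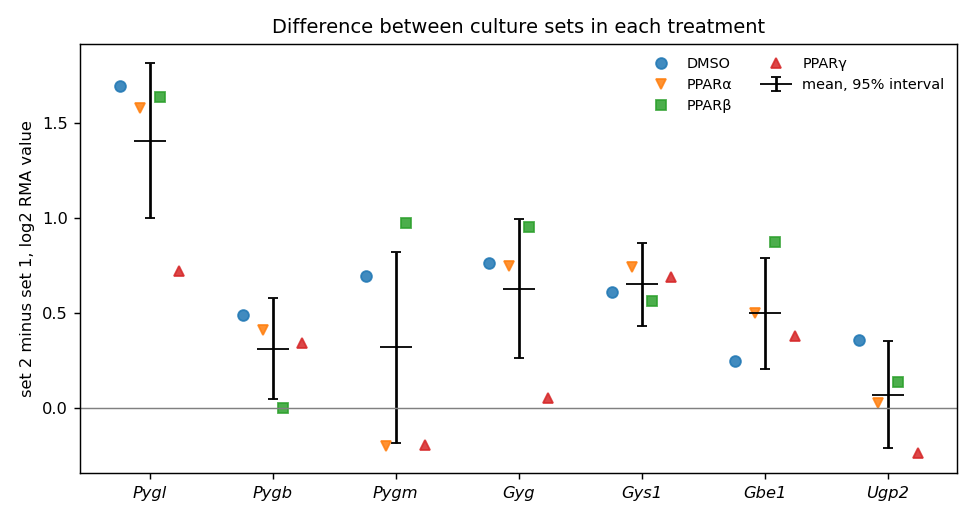
Difference in log2 RMA value between culture set 2 and culture set 1 on the y axis for each gene on the x axis, with a symbol for each treatment, bars for the mean and lines for the limma 95% interval. Pygl, Gyg, Gys1 and Gbe1 lay above 0 in all 4 treatments.

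Within the sets, the member most like Pygl was Gyg. After the mean of each set was subtracted, its Pearson correlation with Pygl over the 8 arrays was 0.86, against 0.50 for Gbe1, 0.36 for Pygm, 0.13 for Gys1, 0.12 for Pygb and -0.31 for Ugp2. With the set difference left in, the values were 0.96 for Gyg, 0.86 for Gbe1, 0.79 for Gys1, 0.73 for Pygb, 0.57 for Pygm and 0.03 for Ugp2. With the set means subtracted, Gyg ranked 106 among the 12696 tested genes, Pygl itself included. The 8 arrays share their DMSO samples and sets, and the correlations are a description.

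For the genes most like Pygl, members, predicted genes, receptor-family and immunoglobulin segment genes and small RNA genes were left out. Of the remaining tested genes, the 5 with the highest correlation were Synpo at 0.974, Crtc1 at 0.972, Tmem238 at 0.961, Tpd52 at 0.957 and Mroh8 at 0.957. Synpo encodes the actin-associated protein synaptopodin, Crtc1 a coactivator of CREB and Tpd52 tumor protein D52. Tpd52 had the largest range of the 5. It stood at 7.80 with DMSO and 8.73, 8.62 and 8.90 under the agonists of PPARα, PPARβ and PPARγ in set 1, and at 8.50, 9.05, 9.35 and 8.99 in set 2. Each agonist array of Tpd52 lay above the DMSO array of its set, by 0.48 to 1.10. The 5 genes were chosen for likeness to Pygl, which was lowest with DMSO in both sets. Their low DMSO levels thus largely follow from the choice. The mean differences of the other 4 from DMSO lay between 0.28 and 0.50. With the set difference left in, the correlation with Pygl was 0.89 for Tpd52, 0.75 for Mroh8, 0.25 for Synpo, -0.33 for Crtc1 and -0.60 for Tmem238.

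**Figure D4:**
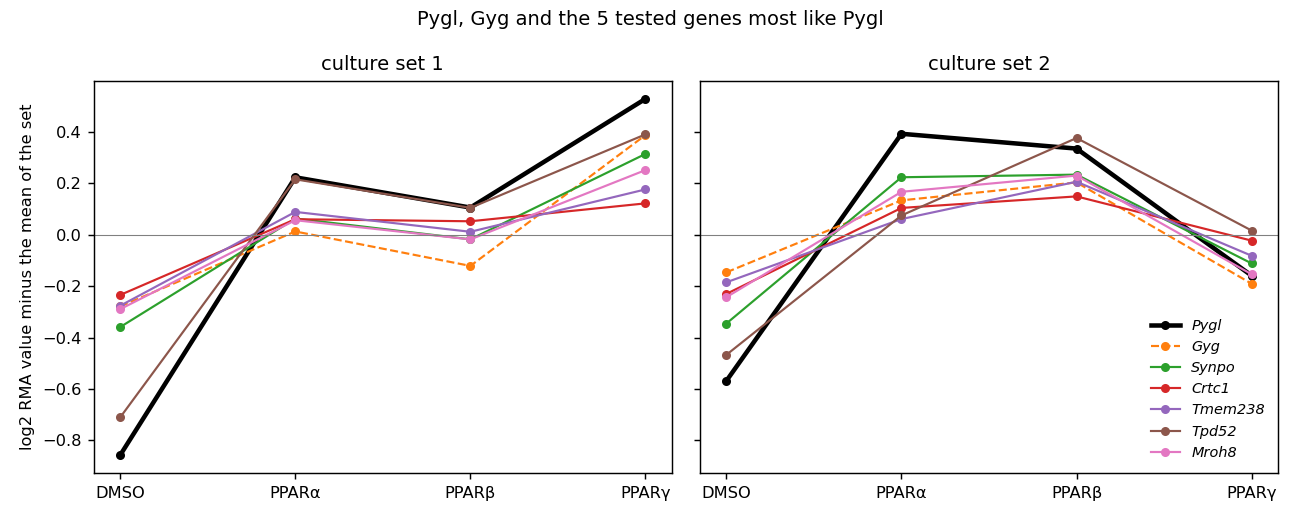
Log2 RMA value minus the mean of the culture set on the y axis for the 4 treatments on the x axis, 1 panel per set. Lines are Pygl (thick black), Gyg (dashed) and the 5 tested genes most like Pygl, after members, predicted genes and other gene families were left out. All 7 lines lay lowest with DMSO in set 1, and in set 2 all but Gyg did. For the 5 genes this largely follows from their choice by likeness to Pygl.

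The wider pathway was read from 9 lists of 63 genes around glycogen, of which 47 were tested, 14 lay below the tested range and 2 shared a cluster with another gene. Genes below the range included Pck1, the gluconeogenic gene linked to glycogen in memory CD8+ T cells, Fbp1 and Fbp2, and the kinase and phosphatase subunit genes Phka1, Phkg1, Ppp1r3a and Ppp1r3c. Limma called 0 of the 47 genes against DMSO with any agonist, with 2, 0 and 0 at an unadjusted p under 0.05 with the PPARα, PPARβ and PPARγ agonists, and 2, 2 and 1 with the block. Of all genes 1.77, 2.35 and 2.17 percent reached that p without the block and 4.86, 6.13 and 5.84 percent with it. The median difference of the 47 was -0.04, 0.03 and -0.04, where all genes had -0.02, -0.01 and -0.01.

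Past 0.3 in both sets, and higher, were 4 of 47 genes with the PPARβ agonist (8.51 percent) and 0 with the PPARγ agonist, beside 2.71 and 2.68 percent of all genes. With the PPARβ agonist, the liver glycogen synthase gene Gys2 differed by 0.35 and Ppp1r3b, whose product brings protein phosphatase 1 to glycogen, by 0.35. H6pd, a hexose 6-phosphate dehydrogenase of the endoplasmic reticulum, differed by 0.40 with this agonist. None of these passed (limma adjusted p = 0.9999 each). The mean difference of Gys2 was similar with the PPARγ agonist, at 0.37, but it was not past 0.3 in both sets.

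Between the culture sets, 12 of the 47 pathway genes were called higher in set 2 (25.5 percent) and 1 lower (2.13 percent), where 7.25 and 9.74 percent of all genes were. The list of glucose entry and glucose 6-phosphate, the largest with 10 tested genes, held 5 of the 12 and the 1 that was lower. Slc2a3, a glucose transporter, rose from 12.96 ± 0.26 to 14.16 ± 0.08 (SD, n = 4; difference 1.2, limma adjusted p = 0.00294). Slc37a4, which carries glucose 6-phosphate into the endoplasmic reticulum, differed by 1.0 (limma adjusted p = 0.00237). G6pc3, a glucose 6-phosphatase, was the gene that fell, from 12.17 ± 0.09 to 11.16 ± 0.13 (difference -1.01, limma adjusted p = 0.00207).

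Pgm1, the phosphoglucomutase that links glucose 1-phosphate to glucose 6-phosphate and is listed under its older name Pgm2 on the array, was higher in set 2 by 1.05 (limma adjusted p = 0.00642). Ugcg and Ugdh, both enzymes that consume UDP-glucose, were higher by 0.65 and 0.49 (limma adjusted p = 0.00835 and 0.0263). Pgm2l1, Ppp1r3b and H6pd were each higher by 0.49 (limma adjusted p = 0.0266, 0.0432 and 0.0232). The count of 13 calls was 6 without either DMSO array and 8 without either PPARα array. The 3 tested phosphorylase kinase genes, whose enzyme switches phosphorylase on, and the 6 tested AMPK genes held 0 calls.

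**Figure D5:**
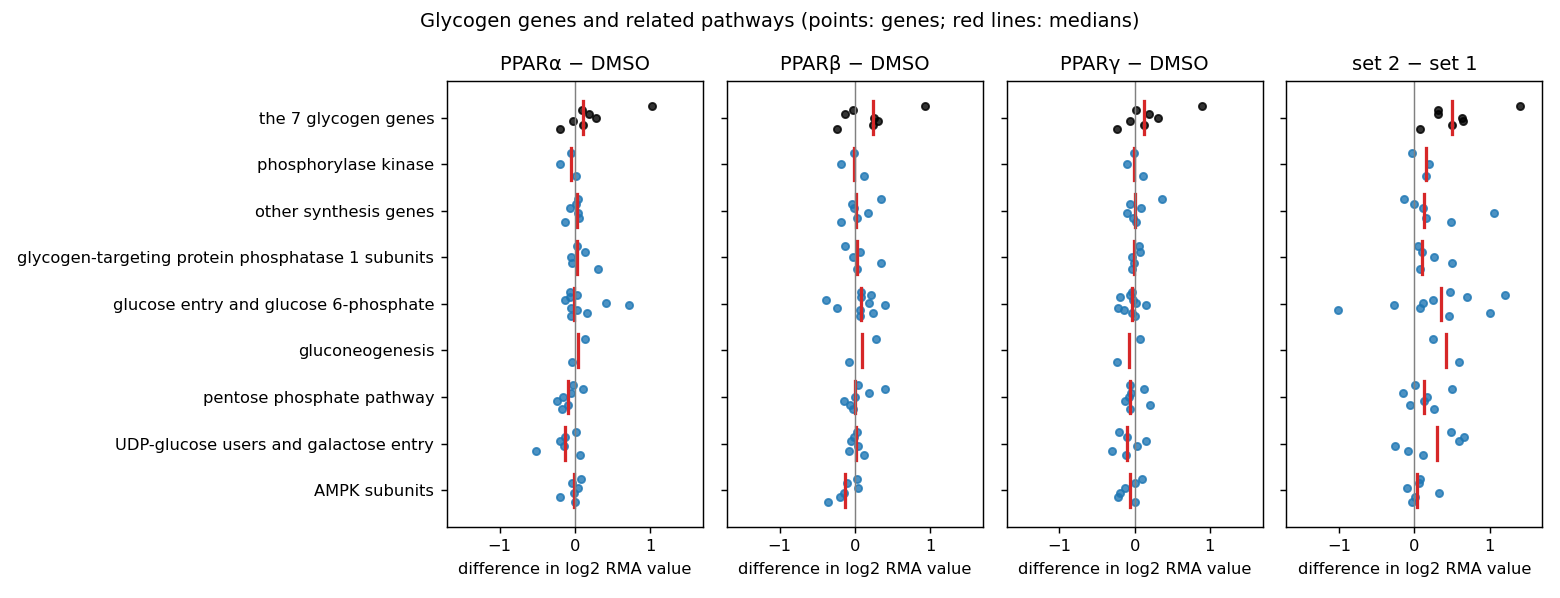
Difference in log2 RMA value on the x axis for the 7 glycogen genes (black) and the tested genes of 8 of the 9 related lists (blue) on the y axis, with red lines at the median; the 3 left panels give each agonist minus DMSO and the right panel set 2 minus set 1. The points of Pygl, chosen on its value, lay at 1.02, 0.93 and 0.90 against DMSO and enter the median line of its row, and the members' median between the sets was 0.50.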

How the data were processed

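RNA of 8 samples was measured on Affymetrix Clariom S Mouse arrays. The deposited values are log2 RMA values from Expression Console, per the labels and the submitters' processing notes, with no version given. Per the file headers, the annotation is na36 on build mm10. The linear intensity columns deposited beside them are the same values, with log2 of each equal to its log2 column within 1.5e-06, and were not tested. The number of arrays, not a depth, limits the precision.

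Of 22206 transcript clusters, 21371 name 1 gene. For a gene with several clusters the one with the highest mean was kept, and symbols were updated by Entrez ID through RefSeq (GRCm38.p6). Genes with a mean of at least 4.89, the 40th percentile, were tested with limma 3.58.1 in R 4.3.3 over all 8 arrays, with 4 residual degrees of freedom, two-sided, with Benjamini-Hochberg adjustment over 12696 genes. Python 3.11.15 prepared tables and plots. The fit was checked on simulated data.

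Culture set was the replicate block in a second fit. It rests on the title prefix that arrays share, and deviations from the group means correlated at 0.496 to 0.550 for each of the 6 pairs of groups. The members and lists were chosen with earlier results of these data known. Named pathway genes are up to 3 per list that were called, or that passed 0.3 in both sets against DMSO. Genes like Pygl exclude members, predicted genes, receptor-family and immunoglobulin segment genes and small RNA genes. Other filters, normalizations, variance settings, sample sets and the series matrix values were tried as alternatives, and each array was left out in turn. Values of some pathway genes are not reported here.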

Additional observations from a re-analysis of the deposited data

Results flagged for a closer look

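The change from DMSO went opposite ways in the 2 culture sets for 10 of the 21 pairs of a member and an agonist. The share over all tested genes was not counted, and the pairs share the same DMSO arrays. Some of the changes were small, such as -0.09 in set 1 and 0.04 in set 2 for Gys1 with the PPARα agonist. The count is a description and does not mark the members out. Each set holds 1 array per treatment, so the difference between sets was not tested. Values here are the change in set 2 minus that in set 1. Among these 10, Pygm differed most, at -0.89 with the PPARα agonist and -0.89 with the PPARγ agonist, and at 0.28 with the PPARβ agonist. Gyg stood at -0.71 and Ugp2 at -0.59 with the PPARγ agonist. Gbe1 stood at 0.25 with the PPARα and 0.62 with the PPARβ agonist. Pygb stood at -0.49 with the PPARβ and -0.15 with the PPARγ agonist, and Gys1 at 0.13 with the PPARα agonist. No group of arrays was large enough to look for an outlying array.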

How the results depend on the processing

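With culture set as a replicate block, 0 members and 0 pathway genes were called in any comparison of treatments, as without it, and the block changed no call. The same counts of 0 held with no filter, a 60th percentile filter (Gbe1 not tested), quantile normalization again, median centring, an intensity trend with robust variances, the compared groups alone, the series matrix values and each array left out. They also held with the block, trend and robust variances together, which was chosen after seeing the data. Of the 4 members called between the sets, 2 passed with no filter, where Gyg had an adjusted p of 0.0719 and Gbe1 of 0.0800 in limma, and more genes were adjusted for. With 1 array left out, 2 to 3 members and 6 to 10 of the 47 pathway genes, against 13 with all arrays, were called between the sets. With quantile normalization again, the change of Gys1 with the PPARα agonist turned to 0.00492. Leaving out 1 array unbalances the sets and turned the sign of 33 of 280 values, 6 of them of Pygl, and none of the 33 was a called value. With the PPARα agonist against DMSO the ranges were -0.15 to 0.34 for Pygb, -0.17 to 0.53 for Pygm, -0.0942 to 0.67 for Gyg, -0.40 to 0.34 for Gys1 and -0.15 to 0.35 for Gbe1. With the PPARβ agonist they were -0.27 to 0.22 for Pygb, -0.62 to 0.36 for Pygm, -0.22 to 0.73 for Gyg and -0.19 to 0.68 for Gbe1. With the PPARγ agonist they were -0.22 to 0.27 for Pygb, -0.15 to 0.54 for Pygm, -0.069 to 0.69 for Gyg, -0.41 to 0.28 for Gys1 and -0.063 to 0.31 for Gbe1. For PPARβ against PPARα they were -0.80 to 0.18 for Pygm and -0.0395 to 0.70 for Gys1, and for PPARβ against PPARγ -0.78 to 0.85 for Pygl and -0.81 to 0.16 for Pygm. Without a test, Pygl ranged from -0.90 to 0.73 for PPARβ against PPARα and from -0.91 to 0.66 for PPARγ against PPARα. The set difference of Ugp2 ranged from -0.0269 to 0.17. The background correction could not be varied from summarised values. Changes between agonists were varied for Pygl, Gys1 and Pygm.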
